A study of Homo sapiens with 8 samples.

Results

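The caveolins and cavins examined here are 7 genes of caveolae, CAV1, CAV2, CAVIN1, CAVIN2, CAVIN3, EHD2 and PACSIN2, taken by gene symbol from a table of 61552 genes. No measured value enters that rule, but the family was picked with earlier results of these data in view. It is not recorded which measured values it was selected on, so all 5 comparisons below are treated as used in the choice. The counts over the family are therefore descriptions. The adjusted p-values, which run over all genes tested, set each difference against the estimated spread between libraries and are not independent support for the choice. All 7 genes had enough reads to be tested.

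Caveolae are small flask-shaped pits of the plasma membrane, abundant in mesenchymal, endothelial, muscle and fat cells. Caveolins sit in the membrane as oligomers, and cavins bind them from the cytosol to form the coat, with CAVIN1 needed for the pits to form. EHD2 is an ATPase that rings the neck and holds the pit at the surface, and PACSIN2 is an F-BAR protein that helps shape the neck. Under stretch, caveolae flatten and release cavins, and caveolin-1 is known in breast cancer for context-dependent effects on growth and invasion.

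The study profiled polyadenylated RNA of cultured breast cancer cells to look for genes that depend on TAF7, a component of the TFIID complex at promoters. The 4 groups, of 2 libraries each, were LM2 with a TAF7 hairpin (LM2 shTAF7), LM2 with a control hairpin (LM2 control), MDA-MB-231 with the TAF7 hairpin (MDA-MB-231 shTAF7) and MDA-MB-231 with the control hairpin (MDA-MB-231 control). MDA-MB-231 is a triple-negative line, and LM2 is its derivative selected in mice for growth in the lung. All groups thus carried a hairpin, the control cells are labelled WT, and TAF7 was targeted with a single hairpin, number 3 in the titles. The libraries carry the numbers 2 and 3, with nothing to say that they were separate cultures, so the p-values may rest on technical spread alone.

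Library totals lay between 17217776 and 20292291 counts, and 1 read was worth 0.0488 to 0.0583 CPM, the count scaled by library total and TMM factor. TAF7 had 142.3 and 148 CPM in LM2 shTAF7 against 195.3 and 197 CPM in LM2 control, and in MDA-MB-231 shTAF7 it had 108 and 105 CPM against 179 and 185 CPM in MDA-MB-231 control. It was thus lower in every knockdown library, at 74.2% of control in LM2 and 58.5% in MDA-MB-231. The LM2 control libraries stood apart, with reads in 24762 and 24490 genes against 22296 to 23434 in the other 6, and every comparison with LM2 control rests on them. The mesenchymal markers VIM (186 to 425 FPKM) and AXL (133 to 159 FPKM) were high in all libraries, while CDH1 and ESR1 did not exceed 0.03 FPKM; ERBB2 and EPCAM, listed as low for such a line, had 5.18 to 6.77 and 2.22 to 4.27 FPKM. Of 18 markers of other caveola-rich cells (endothelium, fat, muscle, fibroblasts), 16 stayed below 1 FPKM in every library, and the fat cell hormones ADIPOQ and LEP had 0 counts in all. Their summed level was 2.69 to 2.91 FPKM in LM2 shTAF7, 4.84 to 5.54 in LM2 control, 2.71 to 2.77 in MDA-MB-231 shTAF7 and 2.33 in both MDA-MB-231 control libraries, so it was highest where CAV1 and CAVIN1 were lowest. Its largest part in LM2 control was COL1A1, with means of 1.48, 2.90, 0.48 and 0.51 FPKM in the same order of groups. The other fibroblast markers, COL1A2, PDGFRA, LUM and DCN, did not exceed 0.07 FPKM. The endothelial markers did not share a direction. KDR was higher in LM2 than in MDA-MB-231 (0.80 and 0.97 against 0.08 and 0.09 FPKM). PECAM1 was lower in LM2 (0.13 and 0.46 against 0.86 and 0.52 FPKM), and CDH5, VWF and TEK did not exceed 0.11 FPKM. The fat cell marker FABP4 was lower in LM2 (0.08 and 0.12 against 0.71 and 0.66 FPKM), but PLIN1 did not separate the lines (0.05 and 0.20 against 0.18 and 0.15 FPKM). FABP4 and PLIN1 rest on 79 and 80 counts over all libraries. The part of these markers in the results was not tested. In such bulk RNA, fewer cells with a transcript and less of it per cell cannot be told apart.

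With the TAF7 hairpin the coat genes moved differently in LM2 and MDA-MB-231, and no other TAF7 hairpin was profiled. In LM2, 5 of the 7 genes rose (CAV1, CAV2, CAVIN1, CAVIN2 and CAVIN3), PACSIN2 fell and EHD2 was not called, where 41.3% of all tested genes were called, 21.8% higher and 19.4% lower. The median log2 fold change of the 7 was 0.54, against -0.02 over all 15923 genes tested. In MDA-MB-231, CAVIN2, CAVIN3 and EHD2 rose, CAV1 and PACSIN2 fell, and CAV2 and CAVIN1 were not called, beside 25.6% of all genes called, 12.6% higher and 12.9% lower. There the median of the 7 was 0.03, against 0.01 over all genes. The difference between both knockdown effects was itself tested as an interaction, with LM2 minus MDA-MB-231, and was called positive for 4 of the 7 genes (CAV1, CAV2, CAVIN1 and CAVIN3), and negative for none, where 25.8% of all tested genes were called, 13.9% positive and 11.9% negative. The threshold for a call was an adjusted p of 0.05 (Benjamini-Hochberg) in edgeR's quasi-likelihood test, with n = 2 libraries a group. The error beside each log2 fold change is its standard error, worked out from the F statistic of that test. TAF7 itself fell less in LM2, with an interaction of 0.34 ± 0.09 (edgeR adjusted p = 0.00544). The part of this unequal fall in the differences above was not tested.

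**Figure D1:**
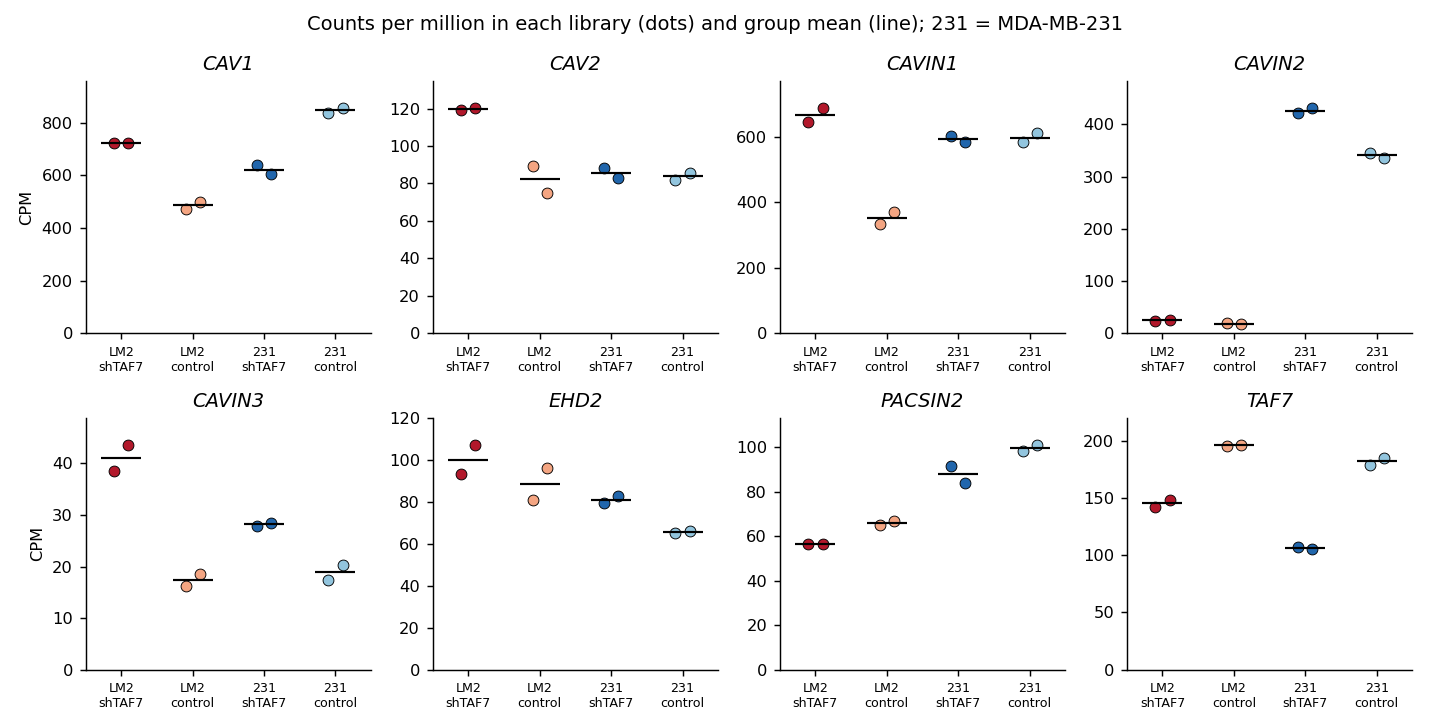
CPM of the 7 caveola genes and of TAF7 in each of the 8 libraries (dots, left to right LM2 shTAF7, LM2 control, MDA-MB-231 shTAF7 and MDA-MB-231 control) with the group means as lines; each panel starts at 0 and has its own scale. CAV1 is highest in MDA-MB-231 control (839 and 857 CPM) and lowest in LM2 control (474 and 499 CPM), and CAVIN2 is low in all 4 LM2 libraries.

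CAV1, which encodes the principal caveolin of non-muscle cells, moved in opposite directions. It had 724 and 725 CPM in LM2 shTAF7, against 474 and 499 CPM in LM2 control. It had 640.3 and 605 CPM in MDA-MB-231 shTAF7, against 839 and 857 CPM in MDA-MB-231 control. The 2 knockdown groups lay between the 2 control groups, and no libraries of different groups overlapped. CAV1 rose in LM2 (log2 fold change 0.57 ± 0.07, edgeR adjusted p = 4.4e-09) and fell by 0.45 ± 0.07 in MDA-MB-231 (edgeR adjusted p = 3.91e-06). The interaction was 1.02 ± 0.1 (edgeR adjusted p = 2.58e-11). LM2 control against MDA-MB-231 control gave -0.80 ± 0.07 (edgeR adjusted p = 4.66e-14), whereas LM2 shTAF7 against MDA-MB-231 shTAF7 gave 0.22 ± 0.07 (edgeR adjusted p = 0.00585). That last call ended without MDA-MB-231 shTAF7 replicate 3 (0.18, edgeR adjusted p = 0.0519), and also in limma's test of FPKM (0.13, adjusted p = 0.0569).

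CAV2, the partner that needs caveolin-1 to reach the cell surface, was highest in LM2 shTAF7. It had 119 and 120.3 CPM in LM2 shTAF7, against 89.5 and 74.9 CPM in LM2 control. MDA-MB-231 shTAF7 had 88.3 and 82.9 CPM, and MDA-MB-231 control 82.0 and 85.5 CPM. The LM2 shTAF7 libraries were above all 6 others, which overlapped. CAV2 rose in LM2 (0.54 ± 0.07, edgeR adjusted p = 6.54e-08). In MDA-MB-231 the difference was 0.03 ± 0.08 with a 95% interval of -0.12 to 0.18, and its sign turned without MDA-MB-231 control replicate 2 or MDA-MB-231 shTAF7 replicate 2. The interaction was 0.51 ± 0.11 (edgeR adjusted p = 0.000218). Between control libraries the lines differed by -0.03 ± 0.08 (95% interval -0.18 to 0.13), and between TAF7 hairpins by 0.49 ± 0.07 (edgeR adjusted p = 1.59e-07).

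Per length, CAV1 stood far above CAV2 in every library. Mean CAV1 levels were 177.2 ± 3.18 FPKM in LM2 shTAF7, 130.1 ± 5.54 in LM2 control, 161 ± 4.85 in MDA-MB-231 shTAF7 and 222 ± 2.67 in MDA-MB-231 control (SD, n = 2 each). CAV2 had 17.2 ± 0.226, 12.9 ± 1.56, 13.1 ± 0.453 and 12.9 ± 0.339 FPKM in the same order. The ratio of CAV1 to CAV2 in FPKM was 10.3 and 10.2 in LM2 shTAF7 and 9.0 and 11.3 in LM2 control, which overlapped. It was 12.3 and 12.4 in MDA-MB-231 shTAF7, below the 17.4 and 17.05 of MDA-MB-231 control. CAV1 ranked between place 113 and place 240 of the genes with a level above 0 in the 4 groups.

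The promoter windows of both caveolins are shown because the genes are neighbours on chromosome 7 and rose together in LM2. Each spans 250 bases before to 50 bases after the start site, from RefSeq on GRCh38.p14, and 5 of the 7 genes had such a window. The searched motifs, on both strands, were the TATA box TATAAA, the GC box GGGCGG, the TEAD motif GGAATG and the AP-1 motif TGANTCA. They occur in 12%, 44.6%, 14% and 7.76% of 27305 windows, in that order, and capitals mark the matches, here all GC boxes. CAV1 lies at chr7:116524759-116525058 and CAV2 at chr7:116499488-116499787, both on the plus strand, and each is the first of several listed windows.
CAV1: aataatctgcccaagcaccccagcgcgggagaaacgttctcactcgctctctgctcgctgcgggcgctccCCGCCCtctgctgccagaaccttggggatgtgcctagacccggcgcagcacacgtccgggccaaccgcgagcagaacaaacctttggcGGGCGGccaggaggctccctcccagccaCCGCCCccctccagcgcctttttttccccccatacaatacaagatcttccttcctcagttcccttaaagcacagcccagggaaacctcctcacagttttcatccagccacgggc
CAV2: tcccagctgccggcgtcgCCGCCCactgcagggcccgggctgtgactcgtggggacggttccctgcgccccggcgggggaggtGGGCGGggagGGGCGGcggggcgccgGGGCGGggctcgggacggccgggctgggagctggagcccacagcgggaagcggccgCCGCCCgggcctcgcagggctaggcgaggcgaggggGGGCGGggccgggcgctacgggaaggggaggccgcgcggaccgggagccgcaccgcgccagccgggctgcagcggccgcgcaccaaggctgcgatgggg
The CAV1 window held 3 GC boxes and 62.3% G and C, and the CAV2 window held 6 GC boxes and 82.7% G and C, against a median of 58.3% over all windows. Letters alone do not show that a factor binds there.

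The neighbours of the caveolin genes on chromosome 7 moved in part alike. In order along the chromosome the tested genes are TES, CAV2, CAV1, MET, CAPZA2 and ST7, while TFEC, WNT2, ASZ1 and CFTR of the same list had too few reads. MET, which encodes the hepatocyte growth factor receptor, had a mean of 147 CPM in LM2 shTAF7 against 114 CPM in LM2 control, and 115 CPM in MDA-MB-231 shTAF7 against 144 CPM in MDA-MB-231 control. It rose in LM2 (0.37 ± 0.07, edgeR adjusted p = 4.4e-05) and fell by 0.33 ± 0.07 in MDA-MB-231 (edgeR adjusted p = 0.000454), the same signs as CAV1, with an interaction of 0.69 ± 0.1 (edgeR adjusted p = 5.91e-07). ST7 rose in LM2 (0.53 ± 0.12, edgeR adjusted p = 0.000337), as did CAPZA2, which encodes an actin capping subunit (0.32 ± 0.08, edgeR adjusted p = 0.00116). Both of those calls ended with limma on FPKM, and that of CAPZA2 also with DESeq2 (adjusted p = 0.0957). TES, on the far side of CAV2, gave -0.11 ± 0.07 in LM2 (edgeR adjusted p = 0.195) but was called lower with limma on FPKM (-0.23, adjusted p = 0.00491). In MDA-MB-231, TES (-0.03), CAPZA2 (-0.09) and ST7 (-0.0) were not called, unlike CAV1 and MET. CAPZA2 and TES are named to complete the row, after their values were seen.

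**Figure D2:**
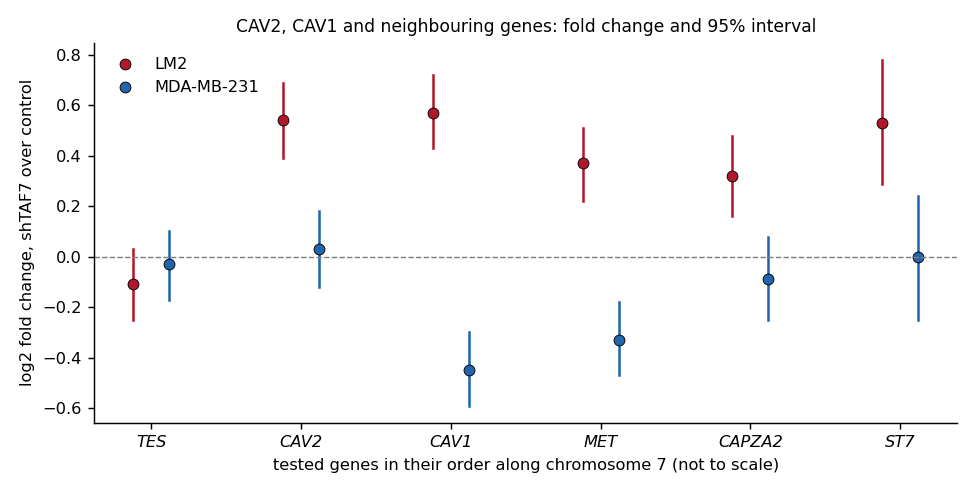
Log2 fold change of shTAF7 over control (dots, with 95% intervals as lines) for the 6 tested genes of the list in their order along chromosome 7, in LM2 (red) and MDA-MB-231 (blue). The LM2 values of CAV2, CAV1, MET, CAPZA2 and ST7 lie between 0.32 and 0.57, and that of TES is -0.11.

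CAVIN1, the cavin on which the coat depends, rose in LM2 and did not differ detectably in MDA-MB-231. It had 647 and 689 CPM in LM2 shTAF7, against 335 and 370 CPM in LM2 control. The MDA-MB-231 shTAF7 libraries had 603 and 584 CPM, and those of MDA-MB-231 control had 584 and 611 CPM. The LM2 control libraries stood clear below the rest and the LM2 shTAF7 libraries above, and the 4 MDA-MB-231 libraries overlapped. CAVIN1 rose in LM2 by a log2 fold change of 0.92 ± 0.07 (edgeR adjusted p = 6.81e-15), and the difference in MDA-MB-231 was -0.01 ± 0.07 with a 95% interval of -0.15 to 0.13, its sign turning when single libraries were left out. The interaction was 0.93 ± 0.1 (edgeR adjusted p = 3.66e-10). LM2 control against MDA-MB-231 control gave -0.76 ± 0.07 (edgeR adjusted p = 3.35e-13). LM2 shTAF7 against MDA-MB-231 shTAF7 gave 0.17 ± 0.07 (edgeR adjusted p = 0.0317), a call lost in a fit of those 4 libraries alone (edgeR adjusted p = 0.0506), with limma on FPKM (0.09, adjusted p = 0.26) and without any 1 of MDA-MB-231 control replicates 2 and 3 (edgeR adjusted p = 0.0727 and 0.0725), MDA-MB-231 shTAF7 replicate 3 (0.117) or LM2 shTAF7 replicate 3 (0.0841).

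CAVIN2, a phosphatidylserine-binding cavin that shapes the membrane of the pit, separated the lines far more than any other of the 7 genes. It had 24.0 and 24.4 CPM in LM2 shTAF7, against 18.7 and 16.5 CPM in LM2 control. It had 421 and 431 CPM in MDA-MB-231 shTAF7, against 346 and 337 CPM in MDA-MB-231 control. All LM2 libraries thus lay far below all MDA-MB-231 libraries, and within each line the knockdown libraries lay above the controls. LM2 control held 5.16% of the MDA-MB-231 control level (log2 fold change -4.28 ± 0.08, 19.4-fold lower, edgeR adjusted p = 2.13e-39), place 191 from the lowest of 15923 genes. With the TAF7 hairpin in both lines LM2 was 17.6-fold lower (-4.14 ± 0.08, edgeR adjusted p = 1.53e-39). CAVIN2 rose with the TAF7 hairpin in LM2 (0.46 ± 0.1, edgeR adjusted p = 0.000104) and in MDA-MB-231 (0.32 ± 0.07, edgeR adjusted p = 0.000203), and the interaction of 0.14 ± 0.12 was not called (95% interval -0.09 to 0.37). With limma, which used no TMM, the LM2 value was 0.29 on log2(FPKM + 1) and 0.33 on log2(FPKM + 0.1), and it was called on both scales.

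The CAVIN2 window is shown because this gene differs most between the lines. It lies at chr2:191847039-191847338 on the minus strand of GRCh38.p14, and its capitals mark 1 TEAD motif that begins 16 bases before the start site.
CAVIN2: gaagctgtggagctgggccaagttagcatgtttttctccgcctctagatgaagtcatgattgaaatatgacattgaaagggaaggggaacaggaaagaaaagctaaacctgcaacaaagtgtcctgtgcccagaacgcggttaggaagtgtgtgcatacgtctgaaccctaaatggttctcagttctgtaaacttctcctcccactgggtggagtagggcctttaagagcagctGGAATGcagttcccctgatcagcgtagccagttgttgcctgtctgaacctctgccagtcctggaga
It held no GC box and 49.3% G and C, in contrast to both caveolin windows above. The first of 6 listed PACSIN2 windows, not printed, likewise held 1 TEAD motif, no GC box and 47% G and C. The other PACSIN2 windows were not searched for this gene's counts. That of EHD2 held 1 GC box and 71% G and C, and CAVIN1 and CAVIN3 had no window.

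CAVIN3, a cavin that binds protein kinase C delta, had the largest knockdown effect of the 7 genes in LM2. It had 38.5 and 43.6 CPM in LM2 shTAF7, against 16.3 and 18.5 CPM in LM2 control. It had 27.9 and 28.4 CPM in MDA-MB-231 shTAF7, against 17.4 and 20.4 CPM in MDA-MB-231 control. All knockdown libraries lay above all control libraries, and the controls of both lines overlapped. CAVIN3 rose by 1.24 ± 0.1 in LM2 (edgeR adjusted p = 3.75e-14) and by 0.58 ± 0.1 in MDA-MB-231 (edgeR adjusted p = 2.86e-05), with an interaction of 0.66 ± 0.14 (edgeR adjusted p = 0.000434). With offsets for GC content and length the MDA-MB-231 value was 0.29 (edgeR adjusted p = 0.0272); CAVIN3 RNA has 67.1% G and C, the highest of the 7. Between control libraries the difference was -0.12 ± 0.11 (95% interval -0.34 to 0.10), called lower in LM2 only with those offsets (-0.27, edgeR adjusted p = 0.0217). Between TAF7 hairpins LM2 was higher (0.54 ± 0.09, edgeR adjusted p = 2.3e-06).

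**Figure D3:**
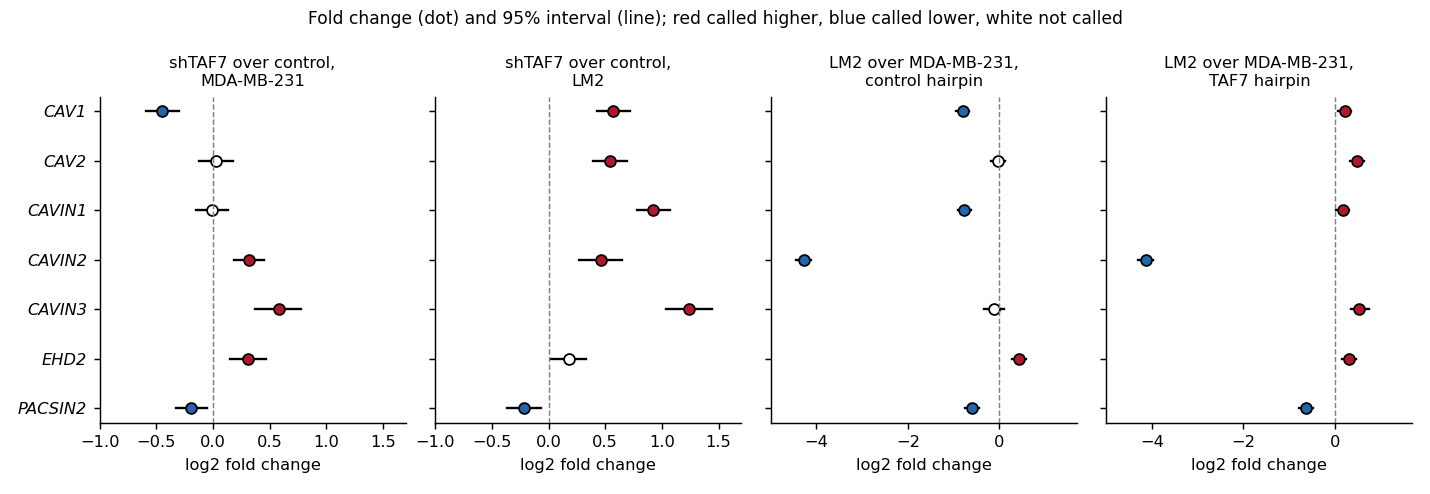
Log2 fold change (dots) with 95% intervals (lines) of the 7 genes for shTAF7 over control in each line, and for LM2 over MDA-MB-231 with the control and with the TAF7 hairpin; red dots were called higher, blue lower and white not called, and the last 2 panels have a wider axis. CAV1 changes sign between both knockdown panels, and CAVIN2 lies near -4.28 and -4.14 between the lines.

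The make-up of the cavin coat in RNA differed between the lines. Per length, CAVIN2 made up 3.68% and 3.49% of the summed cavin FPKM in LM2 shTAF7 and 5.53% and 4.48% in LM2 control, against 42.5% and 43.7% in MDA-MB-231 shTAF7 and 39.3% and 37.4% in MDA-MB-231 control. The summed level of CAVIN1, CAVIN2 and CAVIN3 was 205 and 214 FPKM in LM2 shTAF7 against 114 and 125 in LM2 control. In MDA-MB-231 shTAF7 it was 323 and 326 against 293 and 298 in MDA-MB-231 control. Every knockdown library was above the controls of its line, and every MDA-MB-231 library above every LM2 library. CAVIN1 and CAV1 came close to equal FPKM after knockdown in both lines. Their ratio was 0.969 and 1.03 in LM2 shTAF7 against 0.767 and 0.802 in LM2 control. In MDA-MB-231 shTAF7 it was 1.02 and 1.05 against 0.754 and 0.772 in MDA-MB-231 control. The ratio of CAVIN3 to CAVIN1 was likewise higher in the knockdown, at 0.136 and 0.145 in LM2 shTAF7 against 0.111 and 0.115 in LM2 control. In MDA-MB-231 shTAF7 it was 0.106 and 0.112 against 0.0684 and 0.0765 in MDA-MB-231 control. These ratios of RNA levels are descriptions with no test, and they do not measure protein in the coat.

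**Figure D4:**
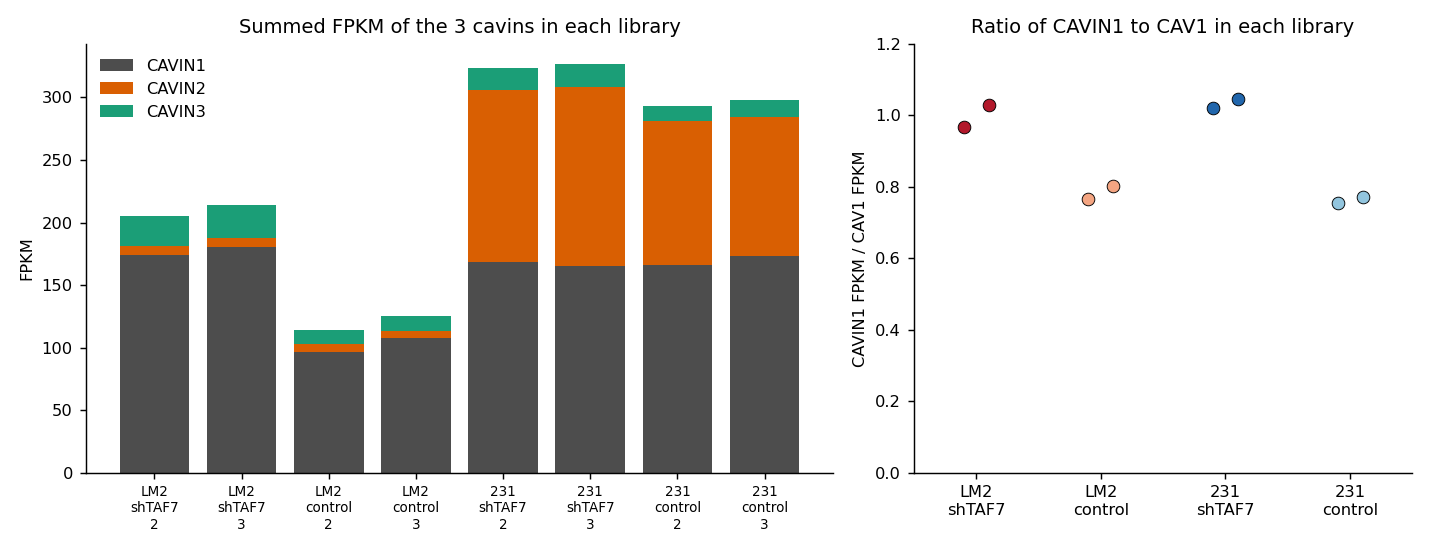
Left, FPKM of CAVIN1, CAVIN2 and CAVIN3 stacked for each library; right, the FPKM ratio of CAVIN1 to CAV1 for each library. CAVIN2 is a thin band in the LM2 bars, and the ratio lies between 0.969 and 1.05 in the shTAF7 libraries and between 0.754 and 0.802 in the control libraries.

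The neck genes showed smaller differences than the coat genes in LM2. EHD2 had 93.1 and 107 CPM in LM2 shTAF7, which overlapped the 81.1 and 96.1 CPM of LM2 control. It had 79.4 and 82.8 CPM in MDA-MB-231 shTAF7, against 65.3 and 66.0 CPM in MDA-MB-231 control. EHD2 rose in MDA-MB-231 (0.31 ± 0.08, edgeR adjusted p = 0.00293; 0.28 and adjusted p = 0.0619 with limma on FPKM). In LM2 it was not called (0.18 ± 0.08, 95% interval 0.02 to 0.33, edgeR adjusted p = 0.0574). It was called without LM2 control replicate 3 (0.31) or LM2 shTAF7 replicate 2 (0.27), and narrowly without MDA-MB-231 shTAF7 replicate 3 (0.18). It was also called with no low-count filter (0.21, edgeR adjusted p = 0.0384) and with a replicate block (0.18, edgeR adjusted p = 0.0435). It was not called with limma on either FPKM scale (0.05 on both, adjusted p = 0.684 and 0.678) or with DESeq2 (0.18, adjusted p = 0.135). Correcting for GC and length lowered the value to 0.12 (edgeR adjusted p = 0.139), again with no call. The lowest value with a library left out was 0.06. The interaction was not called (-0.13 ± 0.11, 95% interval -0.35 to 0.09). EHD2 was the only gene of the 7 higher in LM2 control than in MDA-MB-231 control (0.43 ± 0.08, edgeR adjusted p = 4.99e-06), and it was also higher in LM2 with the TAF7 hairpin (0.31 ± 0.08, edgeR adjusted p = 0.000605; 0.21 and adjusted p = 0.0677 with limma on FPKM).

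PACSIN2 had 56.7 and 56.4 CPM in LM2 shTAF7, against 65.1 and 66.8 CPM in LM2 control. It had 91.6 and 83.8 CPM in MDA-MB-231 shTAF7, against 98.5 and 101 CPM in MDA-MB-231 control. The knockdown libraries were the lower ones in both lines. The falls, by 0.22 ± 0.07 in LM2 (edgeR adjusted p = 0.0146) and by 0.19 ± 0.07 in MDA-MB-231 (edgeR adjusted p = 0.0445), were weakly supported. The LM2 call ended without LM2 control replicate 3 (-0.20, edgeR adjusted p = 0.0858) and again without LM2 shTAF7 replicate 3 (-0.21, edgeR adjusted p = 0.0585), and with no low-count filter (-0.19, edgeR adjusted p = 0.103), and the value was -0.35 with limma on log2(FPKM + 0.1). That in MDA-MB-231 ended without MDA-MB-231 control replicate 2 (-0.21, edgeR adjusted p = 0.141), MDA-MB-231 control replicate 3 (-0.17, edgeR adjusted p = 0.24) or MDA-MB-231 shTAF7 replicate 3 (-0.12, edgeR adjusted p = 0.34), with no low-count filter (-0.18, edgeR adjusted p = 0.134) and with DESeq2 (adjusted p = 0.0547). Between the lines PACSIN2 was lower in LM2, with a log2 fold change of -0.60 ± 0.07 with the control hairpin (edgeR adjusted p = 5.47e-10) and -0.63 ± 0.07 with the TAF7 hairpin (edgeR adjusted p = 2.15e-10). PACSIN2 overlaps ARFGAP3 on the same strand in GENCODE 29, so reads of the shared stretch may have been split between them. ARFGAP3 had 318 and 323 counts in LM2 shTAF7 against 373 and 429 in LM2 control. It had 361 and 426 counts in MDA-MB-231 shTAF7 against 599 and 626 in MDA-MB-231 control. The part of this overlap in the PACSIN2 differences was not tested.

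Across both line comparisons the 7 genes did not move as a block. With the control hairpin, 1 gene was higher in LM2 and 4 were lower, beside 32.2% and 32.1% of all tested genes (64.4% in all), so the share called is near the background. With the TAF7 hairpin 5 were higher and 2 lower, beside 30.9% and 31.6% of all genes (62.5% in all), with only 2 higher in limma's test of FPKM and 3 without MDA-MB-231 shTAF7 replicate 3. The groups of libraries did not overlap for 6 of the 7 genes between LM2 shTAF7 and LM2 control (69.4% of all tested genes) and for 5 between MDA-MB-231 shTAF7 and MDA-MB-231 control (60.9%). Between the lines they did not overlap for 5 genes with the control hairpin (82.6% of all tested genes) and for 7 with the TAF7 hairpin (78.5%). Over the 8 libraries, which share groups, the Pearson correlation of log2 CPM was highest between CAVIN2 and PACSIN2 (0.908), CAV1 and CAVIN1 (0.833) and CAV2 and CAVIN3 (0.821), and lowest between EHD2 and PACSIN2 (-0.887), as a description. Between the partner caveolins CAV1 and CAV2 it was 0.293. The comparisons share libraries with each other, so their values for a gene are not independent.

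**Figure D5:**
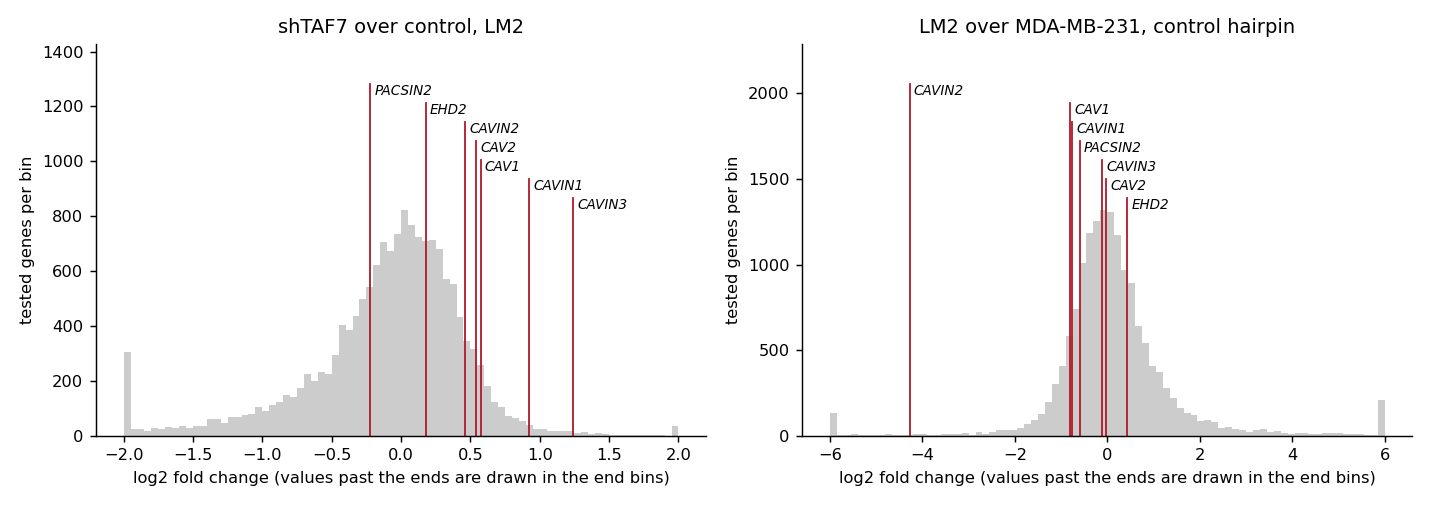
Histograms of the log2 fold change of all 15923 tested genes (grey), for shTAF7 over control in LM2 and for LM2 over MDA-MB-231 with the control hairpin, with the 7 caveola genes as red lines. In LM2 knockdown 6 of the 7 lie to the right of 0 and CAVIN3 lies at 1.24; between the lines CAVIN2 lies at -4.28 in the left tail.

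Other genes of the pathway were taken from 6 lists, the chromosome 7 neighbours among them. Their counts stand beside 21.8% of all tested genes called higher and 19.4% lower in LM2, and 12.6% higher and 12.9% lower in MDA-MB-231. Among paralogs of the coat and neck proteins, CAV3 and EHD3 had too few reads to be tested; of the other 5, 2 rose and 1 fell in LM2 and 1 rose and 1 fell in MDA-MB-231. PACSIN3, a relative of PACSIN2, had a mean of 34.8 CPM in LM2 shTAF7 against 22.8 CPM in LM2 control (0.61 ± 0.09, edgeR adjusted p = 2.84e-07), and LM2 control was below the 55.1 CPM of MDA-MB-231 control (-1.27 ± 0.09, edgeR adjusted p = 6.54e-18). Of 12 kinases, linkers and scission proteins of caveolae, 1 rose and 4 fell in LM2, and 2 rose and 6 fell in MDA-MB-231. FLNA, an actin crosslinker that binds caveolin-1, was the only one of them to rise in LM2 (0.22 ± 0.08, edgeR adjusted p = 0.0251). That call ended without LM2 control replicate 2 (0.10) and without either MDA-MB-231 control library. It also ended with limma on both FPKM scales (0.09 on both, limma adjusted p = 0.45 and 0.445). ROR1, a receptor-like kinase reported to hold CAVIN1 and CAV1 together, fell by 0.56 ± 0.11 in MDA-MB-231 (edgeR adjusted p = 0.000237). DNM1, a dynamin, rose there (0.40 ± 0.1, edgeR adjusted p = 0.00317) and fell by 0.37 ± 0.11 in LM2 (edgeR adjusted p = 0.00758), with an interaction of -0.77 ± 0.15 (edgeR adjusted p = 0.000145). Its MDA-MB-231 call ended without MDA-MB-231 control replicate 3 (0.32, edgeR adjusted p = 0.102) and in limma's test of FPKM (0.27, adjusted p = 0.0707, and 0.37, adjusted p = 0.092, at pseudocounts of 1 and 0.1), and its LM2 call, cited after the values were seen, without LM2 control replicate 3 (-0.23, edgeR adjusted p = 0.205) and again without LM2 shTAF7 replicate 2 (-0.33, edgeR adjusted p = 0.0516).

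Of 9 tested membrane proteins found in caveolae, 2 rose and 3 fell in LM2, and 1 rose and 4 fell in MDA-MB-231. TGFBR1, a TGF-beta receptor, fell in LM2 by 0.42 ± 0.09 (edgeR adjusted p = 0.000151). The coagulation inhibitor TFPI rose in LM2 (0.30 ± 0.07, edgeR adjusted p = 0.000516) and in MDA-MB-231 (0.53 ± 0.07, edgeR adjusted p = 7.79e-08), and its interaction was not called (-0.23 ± 0.1, edgeR adjusted p = 0.0797). That interaction was called in limma's test of log2(FPKM + 1) (-0.32, adjusted p = 0.0208) and by edgeR after correction for GC content and length (-0.29, adjusted p = 0.0118). Of 5 flotillins and other raft scaffolds, 2 rose and 0 fell in LM2, and 1 rose and 1 fell in MDA-MB-231, with the raft protein STOM at 0.38 ± 0.08 in LM2 (edgeR adjusted p = 0.000185). Of 17 genes of the clathrin coat, the other main route of endocytosis, 6 rose and 3 fell in LM2, and 4 rose and 6 fell in MDA-MB-231. The clathrin light chain CLTB rose in LM2 (0.50 ± 0.07, edgeR adjusted p = 1.04e-07), and the adaptor subunit AP2B1 fell by 0.44 ± 0.07 in MDA-MB-231 (edgeR adjusted p = 9.68e-06). The list medians in LM2 were -0.06 for the paralogs, -0.02 for the kinases and linkers, 0.03 for the membrane proteins, 0.06 for the raft scaffolds, 0.00 for the clathrin genes and 0.34 for the 4 tested chromosome 7 neighbours, beside -0.02 over all genes. Those in MDA-MB-231 were 0.19, -0.19, -0.16, 0.04, -0.05 and -0.06 in the same order, beside 0.01 over all genes.

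The genes most like CAV1 over the 8 libraries, by Pearson correlation of log2 CPM among 9412 genes averaging 10 CPM or more, were DHX9 (0.989), CRACR2A (0.984) and MCM4 (0.983). Those most like CAVIN1 were EZR (0.994), METTL2B (0.992) and SRRT (0.991). On log2(FPKM + 1) only MCM4 stayed among the first 3 for CAV1 and only EZR for CAVIN1. These correlations rest on 4 groups of 2 libraries and are descriptions only.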

How the data were processed

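Messenger RNA of 8 libraries in 4 groups of 2 was analysed, grouped by their titles. The deposited counts were whole reads per gene, not normalized. FPKM, as deposited, corrects them for length and library total, judging by 3212 genes whose count over FPKM followed the totals within 0.000136%. Per the submitters' processing notes, STAR 2.7.10a and hg19 were used, in no stated role. Which program, annotation and strand setting produced the counts is not given in the sources used here, so reads of overlapping and antisense genes may not be separated; those antisense to the caveola genes had at most 22 counts in a library.

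Counts were filtered with filterByExpr, which left 15923 genes, scaled with TMM and fitted with edgeR 4.0.16 (R 4.3.3) by quasi-likelihood, with a mean per group and 4 residual degrees of freedom shared by all groups. The test moderates the spread of each gene towards that of all genes, so p-values and intervals use more than those 4 degrees of freedom. The 5 comparisons were knockdown in each line, LM2 against MDA-MB-231 with either hairpin, and the interaction. CPM used library totals over tested genes times TMM factors. Levels between genes were compared in FPKM only. GENCODE 29 gave gene order, overlaps, length and GC content, with 94.8% of identifiers matched. The pipeline was tested on simulated counts.

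Replicates differed beyond sampling noise and were kept apart. Alternatives were DESeq2 1.42.0, RLE size factors, testing without the low-count filter, fitting 4 libraries alone, a block for the replicate number, leaving out each library, limma 3.58.1 on log2(FPKM + 1) and log2(FPKM + 0.1), and offsets for GC content and length (splines with 5 degrees of freedom).

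The members and lists were chosen with earlier results of these data known. The naming rule took all 7 members, TAF7, and from each list up to 2 called genes per direction and comparison by fold change, provided they averaged 5 CPM or more and the groups did not overlap. Of these the text names mainly the strongest, and some whose calls were fragile are given as counts only. Single values of a few other list genes are not reported here.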

Additional observations from a re-analysis of the deposited data

Results flagged for a closer look

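The effect of the TAF7 hairpin differed between LM2 and MDA-MB-231 for 4 of the 7 caveola genes, by the interaction term of the edgeR fit, which called 25.8% of all tested genes, 13.9% positive and 11.9% negative. The difference, LM2 minus MDA-MB-231 on the log2 scale, was 1.02 for CAV1, which rose in LM2 and fell in MDA-MB-231. It was 0.93 for CAVIN1 and 0.51 for CAV2, both called in LM2 and not in MDA-MB-231, and 0.66 for CAVIN3, called higher in both lines. Among the other genes whose interaction was looked at, it was called for TAF7 itself (0.34), MET (0.69), ST7 (0.54), CAPZA2 (0.40) and DNM1 (-0.77). The interactions of TES (-0.08) and of TFPI, given above, were not called in the main fit. The calls of ST7 and CAPZA2 ended with DESeq2 (adjusted p = 0.0559 and 0.168), with limma on FPKM and without MDA-MB-231 control replicate 3 (0.48 and 0.35). That of ST7 also ended without MDA-MB-231 shTAF7 replicate 2 (0.46), LM2 control replicate 2 (0.41) or LM2 shTAF7 replicate 3 (0.41), and that of CAPZA2 without MDA-MB-231 shTAF7 replicate 3 (0.22). The LM2 control libraries enter every interaction by design. Against MDA-MB-231 control, LM2 control was lower for CAV1 (-0.80) and CAVIN1 (-0.76). It was not called for CAV2 (-0.03), and for CAVIN3 (-0.12) only with GC and length offsets. The LM2 control libraries also had reads in more genes than the other 6. The part of that feature in these differences was not tested. With 2 libraries a group, single libraries far from their group were not looked for.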

How the results depend on the processing

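Of 553 values of the 7 genes under 16 settings, 516 kept their direction and side of the threshold, 22 lost the call, 6 gained one and 9 turned sign, each of those 9 uncalled in the main analysis. The sign turned for CAV2 in MDA-MB-231 knockdown (-0.0045 without MDA-MB-231 control replicate 2, -0.02 without MDA-MB-231 shTAF7 replicate 2; range to 0.08), for CAVIN1 there (0.02 without MDA-MB-231 control replicate 3, 0.01 without MDA-MB-231 shTAF7 replicate 3; range from -0.05), and for CAV2 between control lines (0.09 without LM2 control replicate 3, range from -0.16; 0.03 with GC and length offsets). In the interaction it turned for PACSIN2 (0.04 without MDA-MB-231 shTAF7 replicate 2, range from -0.10), EHD2 (0.00461 without LM2 control replicate 3, range from -0.24) and CAVIN2 (-0.01 with limma on log2(FPKM + 1)). The genes called lower in MDA-MB-231 knockdown numbered 1 in place of 2 with no low-count filter and with DESeq2, and those in LM2 knockdown 0 in place of 1 with no low-count filter. Those higher in LM2 between TAF7 hairpins numbered 2 in place of 5 with limma on FPKM at either pseudocount. With a library left out, the 7 genes gave 3 to 3 higher and 1 to 2 lower in MDA-MB-231 knockdown, 5 to 6 and 0 to 1 in LM2 knockdown, 1 and 4 between control lines, 3 to 5 and 2 between TAF7 hairpins, and 4 and 0 in the interaction. All genes called ranged from 2126 (without MDA-MB-231 control replicate 2; 2288 without MDA-MB-231 control replicate 3, 2371 without MDA-MB-231 shTAF7 replicate 3) to 4400 in MDA-MB-231 knockdown (4070 with all libraries), from 4850 to 6807 in LM2 knockdown (6570), from 8982 to 10396 between control lines (10249), from 9006 to 9874 between TAF7 hairpins (9952) and from 2922 to 4127 in the interaction (4113). Limma on log2(FPKM + 1), which used no TMM, moved the share of higher calls from 52.9% to 32.0% in LM2 knockdown and from 54.0% to 32.3% in the interaction; on log2(FPKM + 0.1) the median of all genes was -0.128 in LM2 knockdown, and the coat genes kept their rise. The causes were not tested. The shared replicate numbers did not pair the libraries (correlations of deviations from -0.168 to 0.078); a replicate block gave 4053 calls in MDA-MB-231 knockdown, 6554 in LM2 knockdown, 10203 and 9901 between lines and 4128 in the interaction, and among the 7 genes changed only the call of EHD2 in LM2 (0.18, edgeR adjusted p = 0.0435). Of 1002 values of other genes, 920 stayed on their side of the threshold, 77 lost the call, 5 gained one and 0 turned sign. With 2 libraries a group, small differences such as those of PACSIN2 and EHD2 are at the limit of what could be called.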
